A study of Mus musculus with 2 samples.

Results

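Blood coagulation and fibrinolysis were followed through the vascular cells of the mouse brain with 9 genes: Vwf, Thbd, Procr, Tfpi, F3, Plat, Serpine2, Serpini1 and Anxa2. They were chosen by symbol, and all 9 were present among the 30905 genes of the deposited single-cell matrices. Transcripts of single cells were counted in 2 libraries (replicates 1 and 2), each made from the brain of males of the strain labelled Dmp1Cre-COX8Dendra2 at an age of 4 to 6 weeks. In these mice Cre under the control of Dmp1 (dentin matrix protein 1) switches on Dendra2, a green fluorescent protein carried into mitochondria by a COX8 sequence. Both libraries came from cells sorted for Dendra2, so there is 1 group, every level below is a level in sorted cells, and no Dendra2-negative cells were analysed here. The tests remove the shift shared by all classes of a library. The spread behind a p-value is pooled over the classes and moderated towards that of other genes. It is therefore not the spread of 1 difference in 1 gene alone. Its source is how differences between classes vary between these 2 libraries. The labels do not say whether the libraries came from separate animals or pools, so this variation may be technical.

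Clotting starts when factor VII meets tissue factor, the product of F3, and ends in thrombin, which makes fibrin. Von Willebrand factor (Vwf) tethers platelets to the vessel wall and carries factor VIII. Other genes restrain the cascade: Tfpi encodes the inhibitor of the tissue factor complex, Thbd encodes thrombomodulin, which turns thrombin into an activator of protein C, and Procr encodes the endothelial receptor that presents protein C to it. Fibrin is removed by plasmin, which tissue plasminogen activator (Plat) releases from plasminogen on surfaces that carry annexin A2 (Anxa2). Serpine2 encodes protease nexin-1, an inhibitor of thrombin and of plasminogen activators, and Serpini1 encodes neuroserpin, an inhibitor of tissue plasminogen activator.

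The 4 vascular classes were set by thresholds on 4 genes, none of them a member, in UMIs per 10000 of a cell. A UMI (unique molecular identifier) marks 1 captured transcript. Smooth muscle cells had Acta2 (smooth muscle actin) of at least 80, and transitional mural cells had Acta2 from 20 to 80 with Rgs5 of at least 80. Pericytes had Vtn (vitronectin) of at least 50 with Acta2 under 20, and endothelial cells had Cldn5 (claudin-5) of at least 5 with Vtn under 20. The classes held 3602 and 790 smooth muscle cells, 739 and 354 transitional cells, 2394 and 3298 pericytes, and 248 and 1125 endothelial cells in replicates 1 and 2. Together they were 90.7% and 86.6% of the 7697 and 6427 cells kept, and 12 cells of each library that met 2 definitions entered no class. The marker lists include these 4 threshold genes, so part of their match with the names was fixed in advance. The 8 endothelial markers summed to 19360 and 17090 CPM (UMIs per 1000000) in endothelium, against at most 1132 CPM in any mural class. The 6 smooth muscle markers summed to 46280 and 37260 CPM in smooth muscle, and the 7 pericyte markers to 37400 and 31170 CPM in pericytes. In transitional cells of replicate 1 the smooth muscle markers summed to 14730 CPM and the pericyte markers to 27500 CPM.

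The 2 libraries differed in depth and in immediate-early transcripts, and this touches every comparison between them. Median UMIs per kept cell were 6897 and 3016, and 14 barcode sequences occurred in both. The summed level of 7 immediate-early genes (Fos, Fosb, Jun, Junb, Egr1, Atf3, Ier2), which respond to stress and dissociation as well as to signals, was 23.3 to 91.4 times higher in replicate 2 in the 4 classes. In smooth muscle only 37.8% of the cells of replicate 1, but 92.8% of replicate 2, had under 10% mitochondrially encoded UMIs, and in smooth muscle under that limit Plat was at 178 and 276 CPM and Serpine2 at 218 and 167 CPM. Endothelium carried erythroid transcripts, 24590 and 46070 CPM over 5 markers, with 16 of 248 and 94 of 1125 barcodes marked by them. Many mural cells lay near a threshold: 328 and 127 smooth muscle cells had Acta2 between 80 and 100, and 243 and 92 transitional cells had it between 60 and 80.

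Because Fos and Jun proteins bind the AP-1 motif TGACTCA, the RefSeq promoter windows of the genes were searched for it on both strands, where the reverse strand reads TGAGTCA. The motif was chosen after the values had been seen. Windows of GRCm38.p6, from 250 bases before to 50 bases after a RefSeq start, were found for 6 of the 9 genes: Procr, F3, Anxa2, Tfpi (2 starts), Serpine2 and Serpini1. The motif occurred in 3 of these 7 windows and in 5.2% of all 32851 windows of that length. The bases of these 3 windows that precede both the RefSeq start and the GENCODE gene are shown, 5′ to 3′ on the strand of the gene, because they carry the match, which is in capitals.
Procr, chr2:155750967-155751116 (+): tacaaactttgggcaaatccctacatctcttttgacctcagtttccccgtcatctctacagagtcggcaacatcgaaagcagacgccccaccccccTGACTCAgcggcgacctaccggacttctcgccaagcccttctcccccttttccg
F3, chr3:121723287-121723536 (+): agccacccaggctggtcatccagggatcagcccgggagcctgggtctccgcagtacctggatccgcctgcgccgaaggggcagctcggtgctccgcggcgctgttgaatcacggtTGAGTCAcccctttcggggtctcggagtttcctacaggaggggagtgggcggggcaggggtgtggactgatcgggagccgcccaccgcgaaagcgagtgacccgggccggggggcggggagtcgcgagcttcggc
Anxa2, chr9:69453433-69453619 (+): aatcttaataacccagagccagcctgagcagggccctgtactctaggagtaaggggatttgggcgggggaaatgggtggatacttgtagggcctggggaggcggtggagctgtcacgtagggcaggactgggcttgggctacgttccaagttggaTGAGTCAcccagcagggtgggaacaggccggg
The match began 154 bases before the RefSeq start in Procr, 135 in F3 and 95 in Anxa2, and it lay on the forward strand in Procr only. A match describes the letters of the window and says nothing about binding.

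The 9 genes differed in where they were highest, as shown in the plot of their levels in the 4 classes. Vwf and Thbd were highest in endothelium, Tfpi and Plat in pericytes, Serpini1 in transitional cells, Procr in transitional and smooth muscle cells, and Serpine2 in smooth muscle. Anxa2 was present in all 4 classes, and F3 was close to absent. Counts were summed per class and library and compared with the quasi-likelihood test of edgeR, with library as a block and Benjamini-Hochberg adjustment over all genes at 0.05. Differences are log2 values ± standard error (SE), scaled by edgeR's TMM method. Between smooth muscle and pericytes the median gene was at -0.21 in plain CPM (log2, with 10 CPM added), and TMM placed it at -0.03. A log2 difference can therefore depart from the ratio of the CPM values beside it. Serpine2 in smooth muscle was at 1.57 and 1.79 times its pericyte CPM in replicates 1 and 2, against a fitted log2 difference of 1.12. For Tfpi these ratios were 0.197 and 0.170, against a fitted -2.05. For both genes the fitted difference lay above the log2 of either ratio. Between endothelium and the mean of the 3 mural classes 7 of the 9 genes passed, 3 higher and 4 lower, where 51.9% of the 12309 genes tested passed (24.3% higher, 27.6% lower). The members' median difference was -0.72 and that of all genes -0.06.

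**Figure D1:**
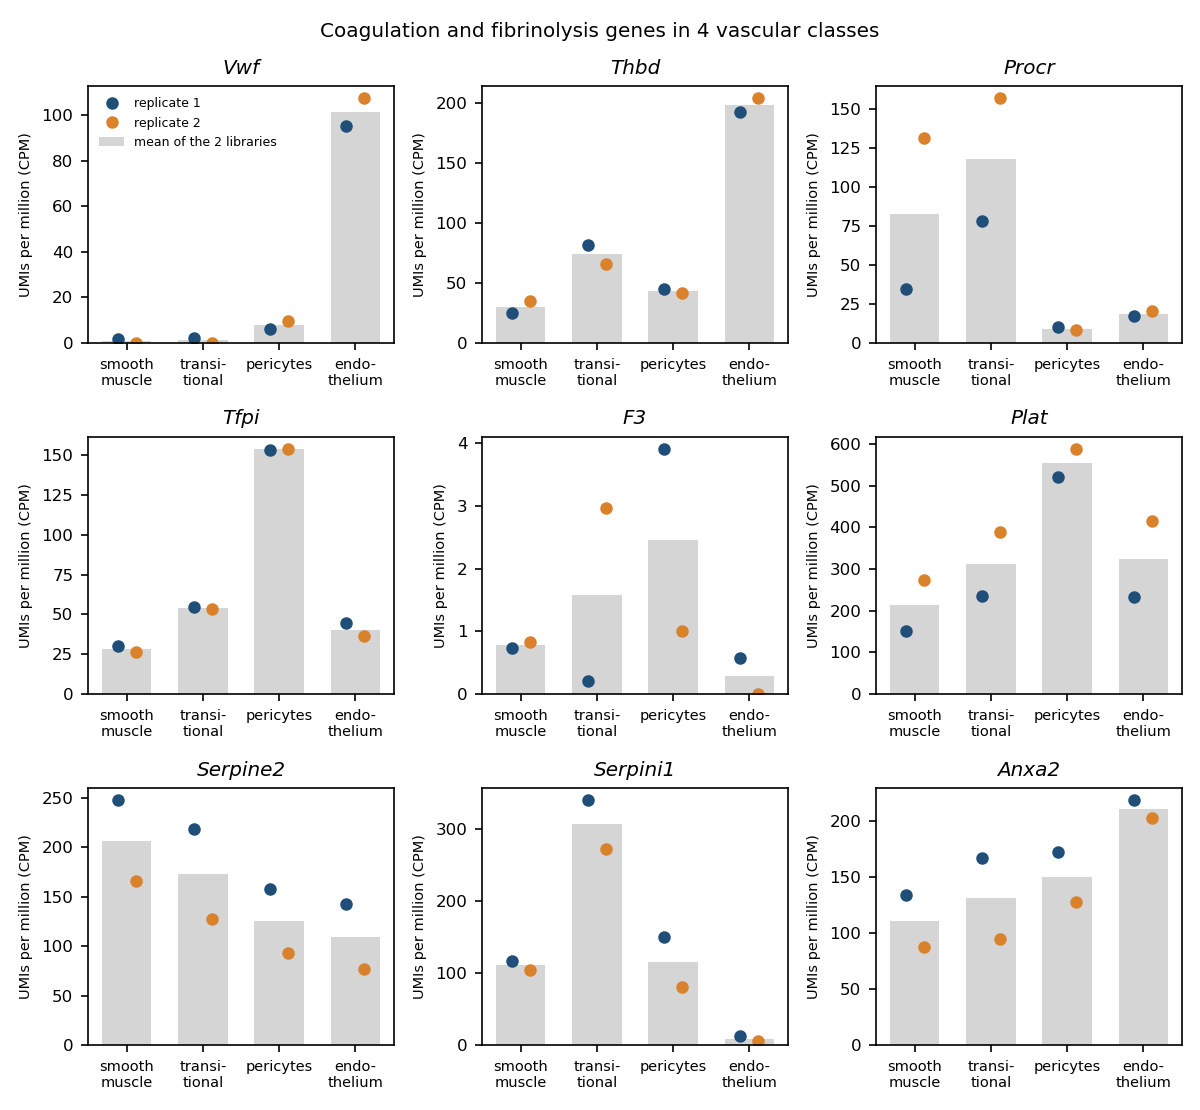
Level of each gene in UMIs per 1000000 (CPM, y axes from 0, a separate scale for each gene) in 4 vascular classes; points are the 2 libraries and grey bars their mean. Vwf stands in endothelium at 95.3 and 107 CPM with the mural classes under 10 CPM, and Procr in smooth muscle has the largest ratio between the 2 points (3.80 times) among values above 30 CPM.

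Vwf reached 95.3 CPM in endothelium of replicate 1 and 107 CPM in replicate 2 (mean 101 ± 8.51, SD, n = 2). The next class was pericytes with 6.26 and 9.65 CPM. Smooth muscle had 1.63 and transitional cells 2.24 CPM in replicate 1, and neither class had a Vwf UMI in replicate 2, where 3 UMIs would be 0.835 and 2.22 CPM. Endothelium stood apart in both libraries, and the difference from the mural mean was 5.11 ± 0.33 (edgeR adjusted p = 5.75e-06). A Vwf UMI was seen in 32.7% and 26.5% of endothelial cells (median 5984.5 and 3441 UMIs) and in 2.59% and 2.18% of pericytes (median 4326.5 and 2501 UMIs). With every cell thinned to 1000 UMIs the shares were 8.58% and 8.90% in endothelium and 0.550% and 0.705% in pericytes, so endothelium kept the higher share at equal depth. Pericytes also carried 556 and 1132 CPM of the endothelial markers, with all 8 at or above 10 CPM in replicate 1, against 30.7 and 63.8 CPM in smooth muscle, and the part of these in the Vwf level of pericytes was not tested. Without mural cells that had 2 or more endothelial marker UMIs, the endothelial difference of Vwf was 5.76. Platelet markers, whose cells also hold Vwf, summed to 15.6 and 24.3 CPM in endothelium, with 3 of 7 at 0 in replicate 1, 0 of 7 at 0 in replicate 2 and 0 of 7 at or above 10 CPM in either library.

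Thbd was also highest in endothelium, but unlike Vwf it was well above 0 in every class. Thrombomodulin transcripts were at 192 and 204 CPM in endothelium (mean 198 ± 8.13, SD, n = 2), 82.0 and 65.8 in transitional cells, 45.4 and 41.5 in pericytes, and 24.8 and 35.1 in smooth muscle. No 2 neighbouring classes overlapped in these values. Endothelium exceeded the mural mean by 2.02 ± 0.12 (edgeR adjusted p = 4.18e-06), and transitional cells exceeded smooth muscle by 1.15 ± 0.17 (adjusted p = 0.00506) and pericytes by 0.94 ± 0.17 (adjusted p = 0.0076). Smooth muscle and pericytes differed by -0.21 ± 0.17, which did not pass (adjusted p = 0.364). Endothelium held 7.75 and 5.81 times the smooth muscle level in replicates 1 and 2.

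Procr, the protein C receptor named for endothelium, was lower there than in the Acta2-bearing classes. Transitional cells had 78.3 and 157 CPM, smooth muscle 34.5 and 131, endothelium 17.3 and 20.4, and pericytes 10.2 and 8.31. As class levels, every smooth muscle and transitional value lay above every endothelial and pericyte value. Smooth muscle exceeded pericytes by 3.22 ± 0.43 (edgeR adjusted p = 0.000646) and transitional cells exceeded pericytes by 3.66 ± 0.44 (adjusted p = 0.00109). Endothelium was below the mural mean, at -1.37 ± 0.42 (adjusted p = 0.0267), below smooth muscle, at -2.29 ± 0.46 (adjusted p = 0.00389), and not shown to differ from pericytes (0.93 ± 0.51, adjusted p = 0.18), although this passed with no filter on low counts (adjusted p = 0.00364) and with cells thinned to 1000 UMIs (adjusted p = 0.031). The 2 libraries gave different sizes: smooth muscle held 3.40 times the pericyte level in replicate 1 and 15.8 times in replicate 2. The SE of 0.43 draws on other classes and genes and does not measure this gap alone. Of all Procr UMIs of the kept cells, 64.7% and 49.3% came from smooth muscle and 1.73% and 9.95% from endothelium. The call against the mural mean was lost with no library block (adjusted p = 0.151) and with higher Acta2 and Vtn thresholds (adjusted p = 0.0528).

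Tfpi was highest in pericytes, with 154 CPM in each library (mean 154 ± 0.141, SD, n = 2). Transitional cells had 54.7 and 53.2 CPM, endothelium 44.5 and 36.3, and smooth muscle 30.2 and 26.2. Pericytes thus held 5.08 and 5.88 times the smooth muscle level and 3.46 and 4.23 times the endothelial level. Smooth muscle was below pericytes, at -2.05 ± 0.12 (edgeR adjusted p = 9.55e-06) and endothelium was below them, at -1.87 ± 0.13 (adjusted p = 1.22e-05). Endothelium and smooth muscle, the neighbours at the low end, were not shown to differ (0.18 ± 0.29, adjusted p = 0.645). Pericytes supplied 53.8% and 75.7% of the Tfpi UMIs of the kept cells.

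F3, which encodes the initiator of clotting, was scarcely detected in the vascular classes. Pericytes had 43 UMIs in 12 of 2394 cells in replicate 1, with 18 of them in a single cell, and 9 UMIs in 7 of 3298 cells in replicate 2. Smooth muscle had 24 and 3 UMIs, transitional cells 1 and 4, and endothelium 1 and 0, where 3 UMIs would be 0.645 CPM. The highest class level was therefore 3.90 CPM (95% exact Poisson interval 2.82 to 5.26, which covers counting error only). None of the 6 class pairs passed for F3 in edgeR, where the smallest adjusted p was 0.12, between endothelium and pericytes. With no filter on low counts that pair passed (-3.58, adjusted p = 0.0239).

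Plat was highest in pericytes in both libraries. Tissue plasminogen activator transcripts were at 520 and 587 CPM there (mean 554 ± 47.4, SD, n = 2), at 233 and 415 in endothelium, at 234 and 389 in transitional cells, and at 152 and 274 in smooth muscle. The level in replicate 2 was 1.66 times that of replicate 1 in transitional cells, 1.78 times in endothelium, 1.803 times in smooth muscle and 1.13 times in pericytes. Pericytes lay above every other value of both libraries, and smooth muscle was lowest within each library, but the 3 lower classes overlapped between libraries. Smooth muscle was below pericytes, at -1.07 ± 0.17 (edgeR adjusted p = 0.00159), transitional cells at -0.74 ± 0.17 (adjusted p = 0.0221) and endothelium at -0.77 ± 0.17 (adjusted p = 0.00722). Endothelium, transitional cells and smooth muscle were not shown to differ from each other in any of the 3 pairs. Between endothelium and smooth muscle, however, Plat passed with higher Acta2 and Vtn thresholds (adjusted p = 0.049) and with cells thinned to 1000 UMIs (adjusted p = 0.0403). With no library block all 3 calls against pericytes were lost (adjusted p = 0.277 for smooth muscle, 0.664 for transitional cells and 0.426 for endothelium). A Plat UMI was present in 83.1% and 71.1% of pericytes, or 39.3% and 42.4% at 1000 UMIs, against 13.7% and 20.5% of smooth muscle cells at 1000 UMIs.

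Serpini1 and Serpine2, both inhibitors of plasminogen activators, took different places. Neuroserpin transcripts were at 340 and 273 CPM in transitional cells, 150 and 81.2 in pericytes, 117 and 104 in smooth muscle, and 12.1 and 5.16 in endothelium. Transitional cells lay above the other classes in both libraries, by 1.23 ± 0.19 over smooth muscle (edgeR adjusted p = 0.00498) and by 1.60 ± 0.19 over pericytes (adjusted p = 0.000962). Endothelium, with 21 and 24 UMIs, was below the mural mean, at -4.43 ± 0.24 (adjusted p = 1.98e-06). Smooth muscle and pericytes swapped order between the libraries, and their difference of 0.36 ± 0.18 did not pass (adjusted p = 0.159). Under a mitochondrial limit of 10% it passed (0.58, adjusted p = 0.024).

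For Serpine2, smooth muscle was highest in both libraries at 248 and 166 CPM, followed by transitional cells at 219 and 127, pericytes at 158 and 92.8, and endothelium at 143 and 76.8. Protease nexin-1 transcripts were lower in replicate 2 in every class, at 0.538 to 0.671 times replicate 1, and the order was the same in both. Among cells with under 10% mitochondrial UMIs, however, smooth muscle of replicate 1 was at 218 CPM and transitional cells at 223. In replicate 2 they were at 167 and 125 CPM under that limit. Smooth muscle exceeded pericytes by 1.12 ± 0.10 (edgeR adjusted p = 8.11e-05), and transitional cells were below smooth muscle, at -0.51 ± 0.10 (adjusted p = 0.0173). Pericytes and endothelium were not shown to differ (-0.14 ± 0.10, adjusted p = 0.309). Endothelium was below the mural mean, at -0.72 ± 0.09 (adjusted p = 0.000268, or 0.0628 with no library block).

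Anxa2 was present throughout, at 218 and 202 CPM in endothelium, 172 and 127 in pericytes, 167 and 94.7 in transitional cells, and 133 and 87.4 in smooth muscle. Only the endothelial values of both libraries lay above all others. Endothelium exceeded the mural mean by 0.64 ± 0.13 (edgeR adjusted p = 0.00468), and none of the 3 mural pairs passed. An antisense gene, Gm16144, overlaps Anxa2 and is counted in the same matrices. The sources used here do not give the strand setting of the counting.

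Between smooth muscle and pericytes 5 of the 9 genes passed (Procr and Serpine2 higher, and Tfpi, Vwf and Plat lower), where 38.8% of all genes did. Vwf, at -2.04 ± 0.51 (edgeR adjusted p = 0.0151), lost its call with DESeq2 (-3.68, adjusted p = 0.0994) and with no library block (adjusted p = 0.0575). Between transitional cells and smooth muscle 4 passed (Serpini1, Thbd and Tfpi higher, Serpine2 lower) where 12.7% of all genes did (6.04% higher, 6.68% lower). Between transitional cells and pericytes 6 passed (Procr, Serpini1, Thbd and Serpine2 higher, Tfpi and Plat lower) where 16.5% did (9.69% higher, 6.77% lower). For Tfpi the transitional level exceeded smooth muscle by 0.68 ± 0.13 (adjusted p = 0.0152) and was below pericytes, at -1.38 ± 0.13 (adjusted p = 0.000303). With no library block none of the 4 calls against smooth muscle was kept (adjusted p from 0.0949 for Serpini1 to 0.537 for Serpine2), and those of Thbd (0.112), Plat and Serpine2 (0.356) against pericytes were lost. Against smooth muscle Tfpi and Serpine2 also lost their calls under a mitochondrial limit of 10% (0.0906 and 0.201), and with cells thinned to 1000 UMIs Tfpi lost it against smooth muscle (0.285) and Serpine2 against pericytes (0.0877). Over the 6 pairs of classes the genes gave 34 calls, or 19 with no library block. The remaining 3 pairs set endothelium against smooth muscle, transitional cells and pericytes, with 6, 7 and 6 genes called where 50.4%, 44.5% and 46.5% of all genes were.

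**Figure D2:**
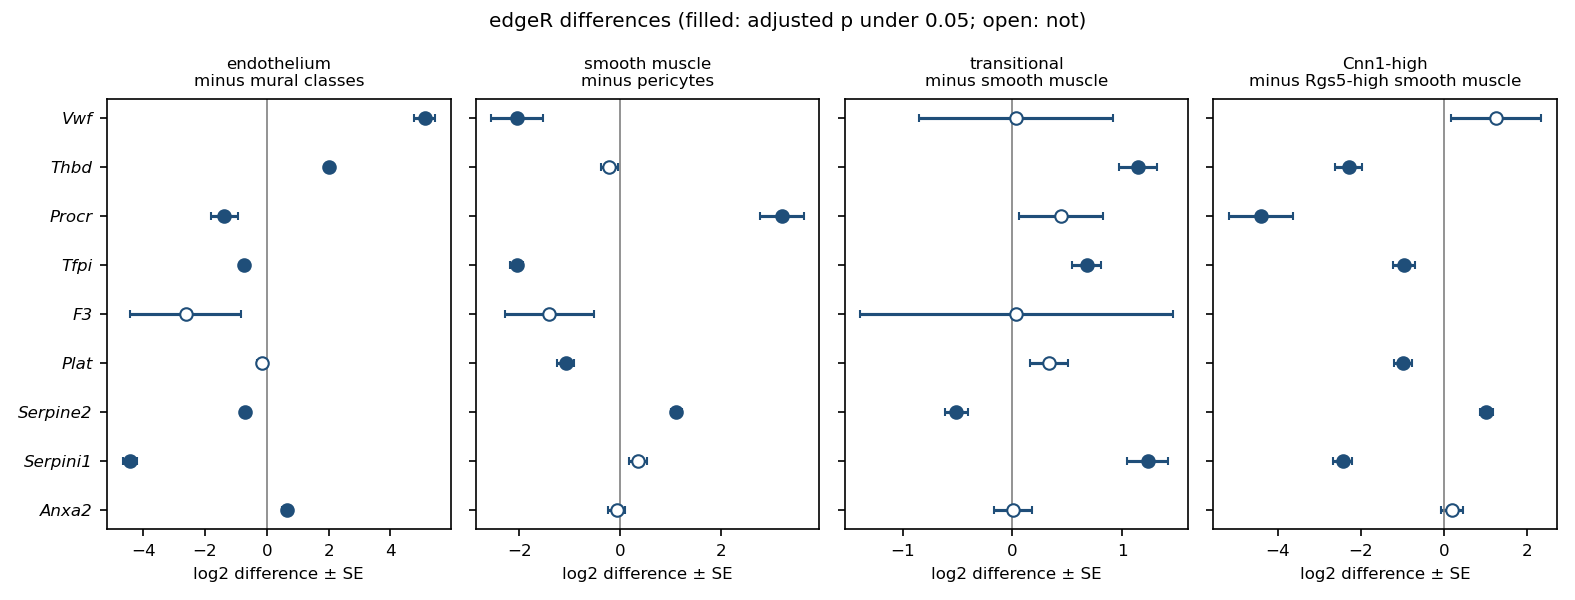
Log2 difference ± SE from edgeR for each gene (x axes differ between panels) in 4 comparisons; filled points passed an adjusted p of 0.05 and open points did not, and F3 was not tested in the last panel. Vwf (5.11) and Serpini1 (-4.43) are the extremes between endothelium and mural classes, and Procr is at 3.22 between smooth muscle and pericytes and at -4.40 between Cnn1-high and Rgs5-high cells.

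Smooth muscle was then split by genes that are not members. Rgs5-high cells had at least 80 UMIs per 10000 of Rgs5, a gene that they share with pericytes. Cnn1-high cells had at least 10 of Cnn1 (calponin, a contractile protein) with Rgs5 under 80, and the rest are called neither. The Cnn1-high class was small in replicate 2, with 371 and 26 cells, against 870 and 158 Rgs5-high and 2361 and 606 neither cells. A mitochondrial limit of 10% left 29 and 24 Cnn1-high cells and 605 and 157 Rgs5-high cells. Of the 8 genes tested, 5 were lower in Cnn1-high than in Rgs5-high cells and 1 higher, where 12.6% of all genes passed (5.47% higher, 7.14% lower).

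Procr had the largest fitted difference, with 90.7 and 147 CPM in Rgs5-high, 20.7 and 132 in neither, and 2.09 and 37.7 in Cnn1-high cells. The level dropped along this order in both libraries, but steeply between the first 2 subclasses only in replicate 1. The difference from Rgs5-high to Cnn1-high was -4.40 ± 0.77 (edgeR adjusted p = 0.000707), and it rested on 5 UMIs in Cnn1-high cells of replicate 2. It lost its call with no library block (adjusted p = 0.0606) and under a mitochondrial limit of 10% (adjusted p = 0.0501). In replicate 1 alone the log2 ratio, with 10 CPM added, was -3.06, and in replicate 2 alone -1.72. In replicate 2 alone Procr was 3.89-fold and Serpini1 5.01-fold higher in Rgs5-high than in Cnn1-high cells, each on 5 UMIs in the Cnn1-high cells.

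Serpini1 showed the most even gradient, with 243 and 189 CPM in Rgs5-high, 87.3 and 86.7 in neither, and 38.4 and 37.7 in Cnn1-high cells. The last value equals that of Procr in the same cells and rests on equally few UMIs, so the closeness of the 2 libraries there is weakly measured. The 3 subclasses did not overlap, and the difference was -2.44 ± 0.24 (edgeR adjusted p = 2.37e-06). Thbd had 48.4 and 40.4 CPM, 19.7 and 34.8, and 7.58 and 15.1 in the same order, a difference of -2.29 ± 0.32 (adjusted p = 9.29e-05). Only 2 Thbd UMIs fell in Cnn1-high cells of replicate 2.

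The other 3 genes changed less along the same axis. Plat went from 208 and 344 CPM in Rgs5-high to 94.9 and 151 in Cnn1-high cells (-0.99 ± 0.21, edgeR adjusted p = 0.0037). Tfpi went from 39.4 and 31.4 CPM to 17.8 and 0 (-0.96 ± 0.27, adjusted p = 0.0232), where 3 UMIs would be 22.6 CPM in Cnn1-high cells of replicate 2. Serpine2 ran the other way, from 174 and 126 CPM in Rgs5-high through 259 and 173 to 327 and 226 in Cnn1-high cells (1.01 ± 0.16, adjusted p = 0.000217). Serpine2 and Plat thus had opposite orders over the 3 smooth muscle subclasses. With no library block the calls of Plat (0.423), Tfpi (0.136) and Serpine2 (0.132) were lost. Under a mitochondrial limit of 10%, which left 29 Cnn1-high cells in replicate 1, those of Plat (0.139) and Tfpi (0.266) were lost. Cnn1-high cells also carried more fibroblast marker UMIs than Rgs5-high cells, 414 and 188 CPM against 76.3 and 47.9 over 5 markers, 1 of which reached 10 CPM in Cnn1-high cells, and the part of this in the differences was not tested.

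**Figure D3:**
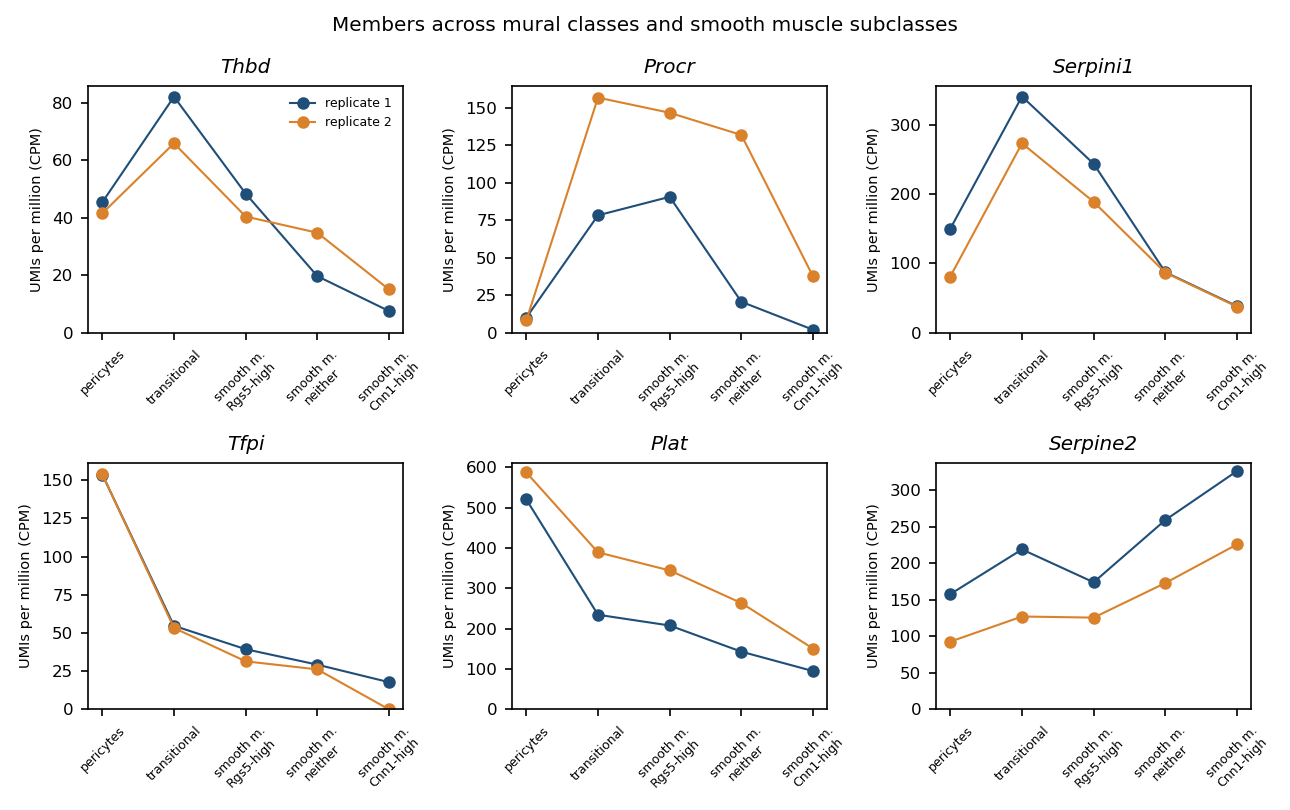
Level in CPM (y axes from 0, a separate scale for each gene) of 6 genes in pericytes, transitional cells and 3 smooth muscle subclasses, ordered from pericytes to Cnn1-high cells; each line joins the values of 1 library. Serpini1 and Procr peak in transitional or Rgs5-high cells, Tfpi and Plat start highest in pericytes, and Serpine2 is highest in Cnn1-high cells at 327 and 226 CPM.

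Endothelium was split by 6 arterial genes (Bmx, Sema3g, Gkn3, Hey1, Vegfc, Efnb2) and 7 venous genes (among them Slc38a5, Nr2f2, Ackr1 and Il1r1) into arterial-side (45 and 183 cells), venous-side (104 and 420) and remaining cells (99 and 522). Of the 8 genes tested, only Serpine2 passed. It was lower in arterial-side cells, with 87.7 and 46.5 CPM against 159 and 75.4 in venous-side and 153 and 91.1 in remaining cells. The differences were -0.83 ± 0.19 (edgeR adjusted p = 0.0224) and -0.98 ± 0.18 (adjusted p = 0.00985), where 2.5% and 1.71% of all genes passed (0.857% and 0.511% lower). Arterial-side values did not overlap venous-side or remaining values within a library, but did between libraries. Both calls were lost with no library block (0.527 and 0.486), with cells thinned to 1000 UMIs (0.74 and 0.809) and without cells marked by other cell types (0.188 and 0.102).

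Vwf was at 175 and 150 CPM in arterial-side, 94.4 and 125 in venous-side and 55.9 and 72.5 in remaining cells. The arterial-side values were the highest in both libraries, at 3.14 and 2.07 times the remaining cells. That difference of 1.20 ± 0.33 did not pass (edgeR adjusted p = 0.0893). It passed with no filter on low counts (adjusted p = 7.97e-05) and without endothelial-marked mural cells (adjusted p = 0.0357). Thbd was at 234 CPM in both libraries in arterial-side, 203 and 209 in venous-side and 160 and 187 in remaining cells, with no pair called. Procr had 35.1 and 34.9 CPM in arterial-side cells against 14.1 and 18.9 in venous-side and 11.8 and 15.6 in remaining cells, on 12 and 30 UMIs in arterial-side cells. The arterial-side to venous-side difference of Procr was 0.98 ± 0.80 (adjusted p = 0.727). In replicate 1 the arterial-side level of Procr lay above that of neither (20.7 CPM) and Cnn1-high (2.09 CPM) smooth muscle cells. In replicate 2 it lay below both (132 and 37.7 CPM).

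Between venous-side and remaining cells none of the 8 genes passed in edgeR, where 0.216% of all genes did, with 1 at an unadjusted p under 0.05 and none in DESeq2. Erythroid transcripts differed between these subclasses, at 2.92 and 29710 CPM in arterial-side, 11160 and 17560 in venous-side, and 50970 and 79020 in remaining cells, and their part was not tested. Neuron markers were highest in arterial-side cells, at 421 and 176 CPM, with 1 of 5 markers at or above 10 CPM.

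**Figure D4:**
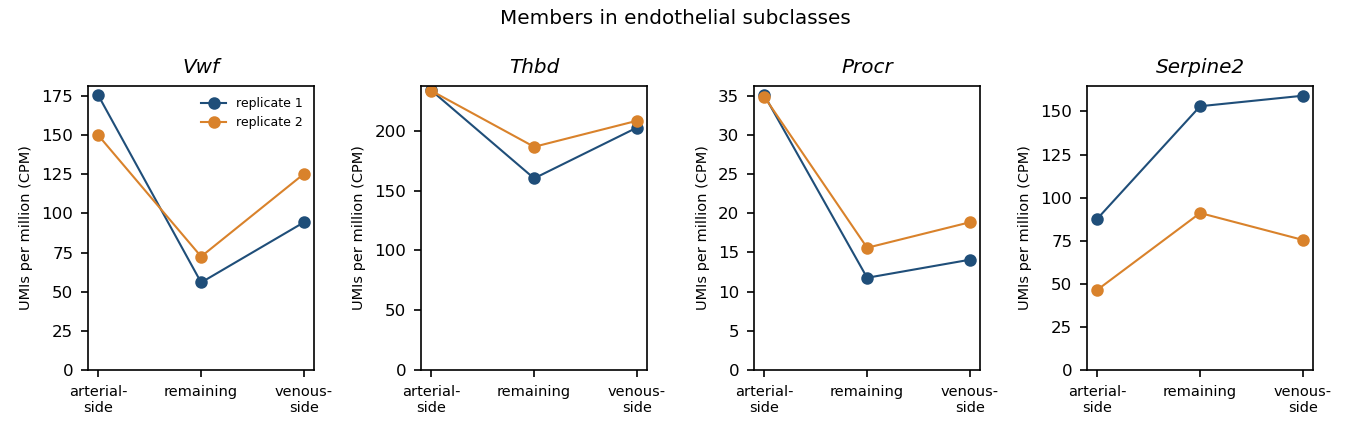
Level in CPM (y axes from 0, a separate scale for each gene) of 4 genes in arterial-side, remaining and venous-side endothelial cells; each line joins the values of 1 library. Vwf, Thbd and Procr have their highest value in arterial-side cells in both libraries, and Serpine2 its lowest, at 87.7 and 46.5 CPM.

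The libraries themselves were compared class by class, with no test, since each is 1 sample. Procr in smooth muscle stood out, at 3.80 times the replicate 1 level in replicate 2, where the median gene was at 0.888 times and 2.11% of genes had a larger ratio. In smooth muscle 4.17% of 5730 genes were at least 2-fold higher in replicate 2. Procr was 2.00 times higher in transitional cells, 1.18 times in endothelium and 0.817 times in pericytes. Within smooth muscle the ratio was 1.62 in Rgs5-high, 6.36 in neither and 18.0 in Cnn1-high cells, the last on 5 UMIs. Among cells with under 10% mitochondrial UMIs it was 57.1 and 133 CPM. The share of smooth muscle cells with a Procr UMI was 21.3% and 30.9%, or 3.48% and 10.3% at 1000 UMIs, against 0.886% and 0.681% of pericytes at 1000 UMIs.

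Smooth muscle cells, pericytes and endothelial cells of each library were divided at their own class median of the 7 immediate-early genes. Procr in smooth muscle was at 37.2 CPM in the low and 31.9 in the high cells of replicate 1, and at 131 in both of replicate 2. The low cells of the 2 libraries are not matched, because the summed immediate-early level of smooth muscle was 274.8 CPM in replicate 1 and 11100 in replicate 2, and its part in the difference between libraries was not tested. Across smooth muscle, pericytes and endothelium none of the 8 genes tested differed between high and low cells in edgeR, where 0.0909% of all genes did. An unadjusted p under 0.05 was reached by 3 of them in edgeR and by 2 in DESeq2, which also called none. The difference for Procr was 0.33 ± 0.11 (adjusted p = 0.584), for Anxa2 0.11 ± 0.06 (adjusted p = 0.819), and the largest was Serpini1 at 0.65 ± 0.13 (adjusted p = 0.215). Each is an equal-weight mean of the 3 classes. Serpini1 was at 17.9 and 8.27 CPM in high and 6.72 and 1.79 in low endothelial cells. In pericytes it was at 157 and 71.5 against 143 and 92.1, and in smooth muscle at 123 and 104 against 112 and 103. Procr was at 21.4 and 25.2 CPM in high and 13.45 and 15.2 in low endothelial cells. In pericytes Procr was at 11.5 and 8.04 against 8.74 and 8.61.

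A wider list of 50 genes of coagulation and fibrinolysis gave the setting. Of these, 20 had enough counts for the class comparisons, and these liver-made plasma proteins were absent or nearly so: prothrombin (F2), fibrinogen (Fga, Fgb, Fgg), plasminogen (Plg) and protein C (Proc) were each under 1 CPM in every class and library. Between endothelium and the mural mean 9 were higher and 9 lower, where 51.9% of all genes passed, with a median of 0.23 against -0.06 for all genes. The highest were F5 (factor V, 5.07), Plaur (urokinase receptor, 3.19), S100a10 (the partner of annexin A2, 2.17) and Entpd1 (an ectonucleotidase that removes ADP, 2.00). Entpd1 in endothelium was above pericytes (4.73) but below smooth muscle (-0.74, edgeR adjusted p = 0.0212). The lowest were Plau (urokinase), with 0 and 3 UMIs in endothelium, and Serping1 (C1 inhibitor, -4.64), followed by Lrp1 (a clearance receptor for activator and inhibitor complexes, -4.18) and F2r (the thrombin receptor PAR1, -4.05).

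Between smooth muscle and pericytes 6 of the 20 were higher, led by Entpd1 (5.47), Thbs1 (thrombospondin-1, 5.01), Gas6 (3.13) and Serping1 (2.66), and 4 were lower: Tfpi2 (-3.49), Lrp1 (-1.31), Pros1 (protein S, -1.09) and F2r (-0.68), where 38.8% of all genes passed. The median was 0.00 against -0.03 for all genes. Pros1, the cofactor of protein C and of Tfpi, was at 115 and 76.7 CPM in pericytes and 115.5 and 67.1 in endothelium, against 40.8 and 28.4 in smooth muscle. Transitional cells exceeded smooth muscle in F2r (1.39), Pros1 (0.87) and Lrp1 (0.83), and were below it in Thbs1 (-3.59) and Entpd1 (-2.74), where 12.7% of all genes passed. Against pericytes 6 were higher in transitional cells, led by Gas6 (2.91), Entpd1 (2.73), Serping1 (2.27) and S100a10 (1.15), and none lower, with a median of 0.07, where 16.5% of all genes passed.

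Within smooth muscle Thbs1 (4.56) and Entpd1 (1.32) were among the genes higher in Cnn1-high than in Rgs5-high cells, and 5 of the 19 tested were lower, led by F2r (-1.60), Pros1 (-1.37), Gas6 (-0.95) and Lrp1 (-0.88), where 12.6% of all genes passed. In arterial-side endothelium S100a10 and Entpd1 were higher than in venous-side (1.44 and 1.16) and remaining cells (1.85 and 1.37). F5 had no UMI in arterial-side cells of either library, against 18 and 60 UMIs in venous-side and 1 and 18 in remaining cells, and passed as lower against venous-side cells only.

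The genes with the most similar pattern were taken over 16 sums of subclass and library, by Pearson correlation of log2(CPM + 10) centred within each library. These sums share libraries and depth, and the values are a description. Closest to Vwf were Ptprr (0.995), Tpd52l1 and Cx3cl1 (both 0.991), to Thbd Gpcpd1 (0.976), to Procr Tspan12 (0.912) and Aig1 (0.892), and to Tfpi Crlf3 (0.951). Closest to Plat were Ptn (0.963) and Notch1 (0.956), to Serpine2 Snrpd2 (0.931), to Serpini1 Ano1 (0.988) and Parp8 (0.983), and to Anxa2 Puf60 (0.960). Procr had the lowest best match of the 8 genes above 20 CPM.

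On GRCm38 (GENCODE M21) 3 of the genes lie on chromosome 2, far from each other: Tfpi at 84432855-84476775 on the reverse strand, Thbd at 148404466-148408188 on the reverse strand and Procr at 155751117-155755471 on the forward strand. All 9 are annotated as protein-coding. Vwf spans chr6:125546774-125686679 (+), F3 chr3:121723537-121735048 (+), Plat chr8:22757727-22782844 (+), Serpine2 chr1:79794197-79861180 (-), Serpini1 chr3:75557547-75643495 (+) and Anxa2 chr9:69453620-69491795 (+).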

How the data were processed

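Dendra2-sorted mouse brain cells were sequenced in 2 libraries with 10x Genomics 3' chemistry, per the labels' protocols. Values are UMI counts as the authors deposited them, whole numbers for each gene in each barcode, from Cell Ranger 3.1.0 (per the file headers). CASAVA 1.8 and Seurat 2.3.4 are named, with no role, in the submitters' processing notes. A genome build was not given in the sources used here, and 30766 of 30905 gene identifiers are in GENCODE M21 (GRCm38), which supplied positions.

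The libraries held 8236 and 7077 barcodes with 59026190 and 26218090 UMIs. Barcodes with at least 500 genes, 1000 UMIs and under 20% mitochondrially encoded UMIs were kept. Scrublet (scanpy 1.11.5, expected rate 6%) called 202 (2.62%) and 1 (0.0156%), so it did not work in replicate 2, and doublets were left in except for cells that met 2 class definitions. Counts were summed per class and library and fitted with edgeR 4.0.16 (TMM, filterByExpr, library as a block, in R 4.3.3): 8 sums with 3 residual degrees of freedom for classes, 16 with 7 for subclasses, and 12 with 3 for immediate-early high and low cells (block of class by library). A median split at or below its value counted as low. Arterial-side and venous-side cells needed a summed level of at least 5 per 10000, 2 UMIs and more of their own list than of the other. SEs are those implied by p and its degrees of freedom. The classes of a library share 1 preparation, and their deviations from the class means correlated at 0.684 to 0.885 over 6577 genes, so the library pairs them. Only the edgeR fit of the classes was tested on simulated counts, with changes set in endothelium alone and no library effect.

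Alternatives were RLE scaling, DESeq2 1.42.0, no filter, no library block, other thresholds, doublet scores, thinning to 1000 UMIs, cells marked by other types, and each library left out. Added after the data were seen were 2 more: leaving out erythroid-marked cells, and leaving out endothelial-marked mural cells. Of the other coagulation genes, up to 4 per direction and comparison with the largest called difference were named, beside genes named for their level after their values were seen. Some results of the wider list are not reported here. The members, the lists and the tests were chosen with earlier results of these data known. Promoters are from RefSeq (GRCm38.p6).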

Additional observations from a re-analysis of the deposited data

Results flagged for a closer look

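These 3 values came from sorted cells outside the 4 vascular classes, marked by at least 3 genes and 10 UMIs per 10000 of exactly 1 other cell type, and each lay above its level in every vascular class. F3 was at 1372 CPM in 35 astrocyte-marked cells of replicate 1 (256 UMIs in 34 cells, 95% exact Poisson interval 1209 to 1550), which held 62.6% of the F3 UMIs of that library, against at most 3.90 CPM in a vascular class. In replicate 2 only 2 such cells were found, with 6 F3 UMIs. Serpine2 was at 862.7 CPM in the same 35 cells (interval 734.6 to 1007), above the highest vascular level of 248 CPM. Serpini1 was at 487.2 CPM in 26 neuron-marked cells of replicate 1, from 107 UMIs in 9 cells, above the 340 CPM of transitional cells. The single neuron-marked cell of replicate 2 had none. These cells come mostly from 1 library, so the values have no replicate check.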

How the results depend on the processing

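Of 103 member differences over 12 comparisons, 49 passed; 25 of these did so in every refit that tested them (13 were run), 24 lost the call in at least 1 and none changed sign. Leaving out 1 library gives a value with no test. Precision is limited by 26 Cnn1-high cells in replicate 2 and 45 arterial-side cells in replicate 1. The cause of each shift below was not tested.

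With no replicate block, the number of genes called went from 4773 to 2469 (smooth muscle minus pericytes), 1566 to 352 (transitional minus smooth muscle), 2026 to 744 (transitional minus pericytes), 289 to 84 (arterial-side minus venous-side), 198 to 33 (arterial-side minus remaining), 25 to 2 (venous-side minus remaining), 1457 to 648 (Cnn1-high minus Rgs5-high) and 11 to 0 (immediate-early), and member calls over class pairs from 34 to 19. For endothelium against smooth muscle, transitional cells and pericytes, the members called fell from 6, 7 and 6 to 5, 4 and 4. Thinning gave 3897 (from 6387, endothelium minus mural), 855, 1252, 54, 31, 2, 533 and 79 for the last 7 comparisons in that order. No filter gave 499, 434, 160 and 72 for the 3 endothelial and the immediate-early comparisons. A mitochondrial limit of 10% gave 730 (transitional minus smooth muscle), 45 (venous-side) and 555 (Cnn1-high). The stricter Cldn5 rule gave 103, 2 and 6 (arterial-side and venous-side minus remaining, immediate-early), dropping high doublet scores 2 and 29 (venous-side, immediate-early), dropping other-marked cells 100 and 1 (arterial-side and venous-side minus remaining), and DESeq2 38 (immediate-early).

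Differences that did not pass changed sign in 38 refits. For transitional minus smooth muscle these were Vwf (-0.0366 no filter, -0.0813 stricter mural thresholds, -0.6324 doublet scores, -0.0610 other-marked, -0.8581 without endothelial-marked mural cells), F3 (-0.0010 no filter, -0.3216 mitochondrial limit) and Anxa2 (-0.0466 no filter, -0.0007 no block, -0.0066 doublet scores, -0.0774 thinned, -0.0440 other-marked, -0.0634 endothelial-marked). For endothelium minus transitional cells, Plat (-0.02 as reported) was 0.0306 (RLE), 0.0305 (DESeq2), 0.0231 (Cldn5 rule), 0.1069 (doublet scores), 0.2324 (thinned), 0.0027 (other-marked) and 0.0207 (endothelial-marked). Thinning also gave Plat 0.0290 (endothelium minus mural) and -0.0318 (arterial-side minus venous-side), and Anxa2 -0.4576 (arterial-side minus remaining) and -0.1590 (Cnn1-high minus Rgs5-high). The mitochondrial limit gave Thbd 0.0755 (smooth muscle minus pericytes), Anxa2 0.0084 (transitional minus pericytes), and Vwf -4.5323 (Cnn1-high minus Rgs5-high) and -0.1273 (immediate-early). Dropping doublet scores gave Procr -0.0335 and Serpini1 0.1540 (venous-side minus remaining). Serpine2 between immediate-early high and low cells, 0.00 as reported, was -0.0001 (no filter), -0.0022 (cells of 2 definitions kept), -0.0101 (Cldn5 rule), -0.0322 (mural thresholds), -0.0301 (doublet scores), -0.0177 (thinned), -0.0017 (no erythroid-marked) and -0.0229 (no endothelial-marked).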

Other observations

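Vascular fibroblast-marked cells, 7 in replicate 1 and 19 in replicate 2, carried several of the genes at levels above most vascular classes. F3 was at 468 and 192 CPM there (38 and 13 UMIs), above its level in every vascular class. By number of F3 UMIs, however, pericytes held more than the fibroblast-marked cells in replicate 1 and fewer in replicate 2. Thbd was at 357 and 177 CPM, Anxa2 at 775 and 280 CPM and Plat at 283 and 620 CPM in the fibroblast-marked cells. Oligodendrocyte-marked cells, 182 and 434, held Plat at 121 and 156 CPM, while their Thbd, at 1.79 and 1.45 CPM, and Tfpi, at 6.26 and 2.53 CPM, were far below the vascular classes. Their Serpine2 differed between libraries, at 145 and 8.67 CPM. No test was run on these small groups.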
